A study of Mus musculus with 2 samples.

Results

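The distal microRNA cluster of the imprinted Dlk1-Dio3 region was followed here in the newborn mouse heart. MicroRNAs (miRNAs) are RNAs of about 22 bases that pair with messenger RNAs, mainly through their seed, bases 2 to 8, and lower their output. The members were all rows of the count tables whose gene lies on chromosome 12 between 109709060 and 109747960 (GRCm38, the same assembly as mm10), a window from Mir379 to Mir3072 that reaches into Mirg, a long noncoding gene. The rule used position alone and found 38 of 1973 rows. The samples formed 1 group: strain B6NCrl, no treatment named, heart, postnatal day 0, sex not collected. Pup 2 gave replicate 1 and pup 3 gave replicate 2, each as 1 heart, and pregnant female 1 carried both. With 1 group and 1 library per pup the design holds no contrast of conditions, and the questions it allows are which miRNAs of the cluster the heart holds, at what level, and how far 2 littermates differ.

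In the Dlk1-Dio3 region the noncoding genes, among them Meg3, Rian, Mirg and the miRNAs, are expressed from the maternally inherited chromosome, whereas the coding genes Dlk1, Rtl1 and Dio3 are expressed mainly from the paternal one. The miRNAs are thought to be cut from long precursor transcripts that run through the whole region. The distal cluster is best known from the brain, where activity and the MEF2 transcription factors induce it, and MEF2 factors also act on this region in muscle. Its members are found in placental mammals and many have similar hairpins.

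Sense-strand counts totalled 2323450 in replicate 1 and 3487183 in replicate 2, and levels are given as CPM, the count scaled to 1000000 such counts. Replicate 2 was thus 1.5-fold deeper. A count of 0 was read as allowing up to 3 counts, which is 1.29 CPM in replicate 1 and 0.86 CPM in replicate 2; the two-sided exact interval described next reaches slightly higher, to 1.59 and 1.06 CPM. Intervals are exact Clopper-Pearson 95% intervals, and like the floors they cover counting error of reads only. They leave out differences between animals and between library preparations. Several reads can come from 1 molecule and no molecular identifier is recorded, so the intervals can be too narrow even for counting error. The heart label was checked against marker miRNAs: the 6 cardiac muscle miRNAs with a row summed to 90128 and 88949 CPM in the 2 hearts. Nearly all of this came from Mir208a, Mir208b and Mir499, the miRNAs hosted by myosin heavy chain genes, and Mir208a was called lower in replicate 2 (15926 and 13951 CPM) by the exact test described further on. The rows of Mir1a-1, Mir133a-1 and Mir133a-2 lay between 2.01 and 8.61 CPM, and reads of such copies can align to several places.

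Mature sequences of the cluster are in RefSeq (GRCm38.p6) for 37 of the 38 members, 69 in all. The set used holds only the 5p form of Mir487b, Mir376c and Mir539 and only the 3p form of Mir485. Counts of seeds and letters below cover the forms it holds. Those printed here belong to the 5 most abundant members, to members that resemble one another closely, since their counts are compared further on, and to Mir409 and Mir376a, which were read from minus-strand rows. Each is written 5′ to 3′, with the seed in capitals.
miR-379-5p: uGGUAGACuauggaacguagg
miR-1193-5p: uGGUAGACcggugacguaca
miR-411-5p: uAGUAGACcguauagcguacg
miR-379-3p: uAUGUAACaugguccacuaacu
miR-411-3p: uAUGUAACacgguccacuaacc
miR-487b-5p: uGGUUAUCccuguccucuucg
miR-369-5p: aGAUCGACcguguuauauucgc
miR-369-3p: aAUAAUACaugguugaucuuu
miR-541-5p: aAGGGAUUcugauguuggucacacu
miR-541-3p: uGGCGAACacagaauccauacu
miR-381-3p: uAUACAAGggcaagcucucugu
miR-300-3p: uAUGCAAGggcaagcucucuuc
miR-409-3p: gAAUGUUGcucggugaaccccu
miR-376a-3p: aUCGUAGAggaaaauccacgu

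Mir379 and Mir411, the first and second genes of the cluster, carry 3p forms that share the seed AUGUAAC and differ at 2 positions, U10C and U22C, counted from 1 at the 5′ end with the base of miR-379-3p first. Their 5p forms differ at 7 positions, and the first of these, G2A, falls in the seed. Thus miR-379-5p has the seed GGUAGAC in common with miR-1193-5p and not with its neighbour miR-411-5p. Another close pair is miR-381-3p and miR-300-3p, which differ at 3 positions, A4G in the seed and G21U and U22C at the 3′ end. The 69 mature forms held 64 distinct seeds, and 5 seeds occurred on more than 1 of them. The other shared seeds join miR-758-5p to miR-1197-5p, miR-410-5p to miR-494-5p and miR-496a-5p to miR-453. For 10 mature forms the same seed was also found on a mouse miRNA outside the cluster, such as miR-362-3p for miR-329-3p, and 0 had an identical sequence outside it.

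The 5p forms share more than single seeds. The letters GGU stood within bases 1 to 8 in 20 of 35 5p forms of the cluster (57.1%) and in 110 of the 690 other mouse 5p forms in the table (15.9%). The letters AUGU stood within bases 1 to 8 in 6 of 33 3p forms (18.2%) and in 11 of 696 others (1.58%). Only the RNA strand was searched, the motifs do not overlap each other, both were chosen after the sequences had been read, and a match is a description of the letters only. The first base was U in 43.5% of the 69 forms and in 41.2% of the 1665 others, A in 37.7% and 25%, and C in 5.8% and 21.1%. Median length was 22 bases in both sets, and median GC content was 47.6% in the cluster and 52.2% elsewhere. The counts are per gene, so the 5p and 3p forms of a hairpin are not told apart in any value that follows.

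The cluster held 34886 counts in replicate 1, 1.5% of all sense counts (95% interval 1.486 to 1.517%), and 61163 counts in replicate 2, 1.75% (1.74 to 1.768%). The mean was 1.63% ± 0.179 (SD, n = 2). The intervals of the 2 hearts, which cover counting error only, do not overlap, and the share was 1.17-fold higher in replicate 2. At 2 CPM or more in both hearts, 32 of the 38 members were detected (84.2%), against 331 of 1977 features over all rows (16.7%). Of the 1977 features, 1358 had 0 counts in both hearts. Of the 20 rows from the start of Meg3 to the base before Mir379, treated further on, 14 were detected (70%). Among the 6 members not detected, Mir758 had 5 and 4 counts, Mir544 had 2 and 2, and Gm27379 had 1 and 1. The rows of Mir1197, Mir654 and Mir453 were at 0 in both hearts. Mir758 shares a stretch of 20 bases with another miRNA gene, as do Mir411, Mir376c and Mir487b, and reads that align to several places are not in these counts. These 4 rows are uncertain for that reason. They held 35.7% ± 0.0152 (SD, n = 2) of the cluster's counts, nearly all of it in Mir411 and Mir487b. Genes that overlap a member were left out of this search, so Mir299a, treated below, is not among the 4.

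**Figure D1:**
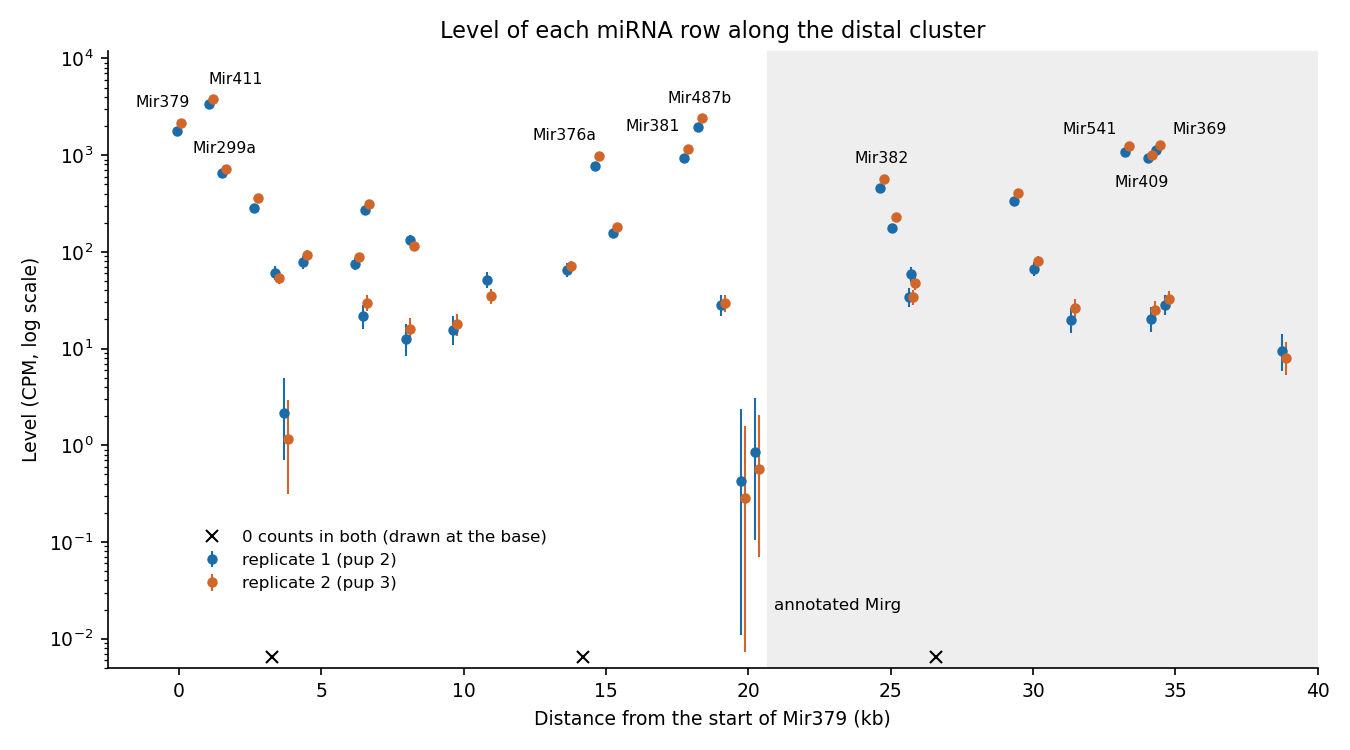
Level of each of the 38 rows (CPM, log scale) against its distance from the start of Mir379 in kb, with 1 point per heart and bars for the exact 95% counting interval; crosses mark the 3 rows at 0 in both hearts and grey shading marks the annotated Mirg. The abundant members, with means of at least 500 CPM, are named and stand in several stretches of the cluster.

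Levels within the cluster spanned 407.3-fold from the highest to the lowest detected member. The 10 members whose mean reached 500 CPM held 86.8% ± 0.151 (SD, n = 2) of the cluster's counts, another 12 lay between 52.9 and 371.9 CPM, and the last 10 detected members lay between 8.75 and 43 CPM and held 1.53% ± 0.109. CPM is not divided by length, and mature miRNAs are of nearly 1 length. How evenly different miRNAs enter a library was not measured, and both libraries can share any such unevenness. Levels of different members are therefore set side by side as an order of counts, not of molecules.

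Mir411 was the most abundant member, with 7770 counts (3344 CPM) in replicate 1 and 13190 counts (3782 CPM) in replicate 2, a mean of 3563 ± 309.9 CPM (SD, n = 2). It alone made up 21.9% ± 0.5 (SD, n = 2) of the cluster. Mir487b followed with 4525 counts (1948 CPM) and 8376 counts (2402 CPM), a mean of 2175 ± 321 CPM. Mir487b belongs, with Mir329, Mir494 and Mir495, to members studied in the growth of blood vessels after ischaemia. Mir379, the gene that opens the cluster, had 4138 counts (1781 CPM) and 7508 counts (2153 CPM), a mean of 1967 ± 263 CPM. These 3 genes held 47.3% ± 0.304 of the cluster's counts, and the gap between Mir487b and Mir379 was smaller than the SD of either. Mir487b was nonetheless above Mir379 in both hearts.

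Below them stood Mir369, Mir541 and Mir381. Mir369 had 2653 counts (1142 CPM) and 4388 counts (1258 CPM), and Mir541 had 2480 counts (1067 CPM) and 4357 counts (1249 CPM). Mir381 had 2181 counts (939 CPM) and 3993 counts (1145 CPM). Their means, 1200 ± 82.4, 1158 ± 129 and 1042 ± 146 CPM, differ between neighbours in this order by less than their spread, and the order was the same in both hearts. Mir382, the lowest member of the abundant group, had 1053 counts (453 CPM) and 1966 counts (564 CPM), a mean of 508.5 ± 78.2 CPM.

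The other 3 abundant members were read from rows that the annotation places on the minus strand, opposite to the cluster's own genes. Mir409, Mir376a, Mir299a and Mir380 have no row of their own, and their reads appear on the opposite-strand column of Gm24321, Gm25252, Mir299b and Gm25750. Such reads numbered 2153 (927 CPM) and 3496 (1003 CPM) for Mir409, and 1780 (766 CPM) and 3380 (969 CPM) for Mir376a, a miRNA whose hairpin is known to be edited from A to I in the brain. Mir299a had 1502 reads (646.5 CPM) and 2485 reads (713 CPM), and Mir380 had 654 reads (282 CPM) and 1268 reads (364 CPM). Together these 4 rows held 17.4% ± 0.0536 (SD, n = 2) of the cluster's counts, all of which a reading of the sense column alone would miss. On their annotated strand the same 4 rows held 1 count in replicate 1 and 2 counts in replicate 2, all in Mir299b. The 34 plus-strand rows had 0 opposite-strand counts in both hearts, while the opposite strand held 6.46% and 6.49% of counts on genes outside the cluster. Mir376b has no row and was not analysed here.

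At Mir299a the strand cannot be read from the letters alone. In RefSeq the 3p form of the minus-strand gene repeats the start of the plus-strand one, and both are shown with the seed in capitals.
miR-299a-3p: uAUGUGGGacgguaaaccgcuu
miR-299b-3p: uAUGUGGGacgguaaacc
The first 18 bases are identical although the genes lie on opposite strands. The 5p form of the minus-strand gene, of 21 bases, likewise repeats the end of miR-299a-5p. Reads of such stretches can align to both places, and those that did are not in these counts. Reads were assigned here by the strand column of the table. The row, with 4.18% of the cluster's counts, is therefore uncertain too.

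Of the 12 members of middle level, Mir154 was the highest, with 782 counts (337 CPM) and 1420 counts (407 CPM). It was followed by Mir380, Mir1193, Mir134, Mir300 and Mir543. Mir1193, which shares the seed of miR-379-5p, had 626 counts (269 CPM) and 1097 counts (315 CPM), fewer than Mir379 in both hearts, though the counts do not say which arm they come from. Mir134, known in neurons for limiting the size of dendritic spines through Limk1, had 411 counts (177 CPM) and 807 counts (231 CPM). Mir300, whose 3p form differs from that of Mir381 by a single base of the seed, had 364 counts (157 CPM) and 630 counts (181 CPM), well below Mir381 in both hearts. Mir543 had 307 counts (132 CPM) and 397 counts (114 CPM).

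The remaining middle members lay below 100 CPM. Mir329 had 181 and 327 counts (77.9 and 93.8 CPM), and Mir494 had 175 and 305 counts (75.3 and 87.5 CPM). Mir496a had 154 and 278 counts (66.3 and 79.7 CPM), Mir376c had 152 and 248 counts (65.4 and 71.1 CPM), and Mir323 had 142 and 189 counts (61.1 and 54.2 CPM). Mir485, which acts on synaptic vesicle protein SV2A in neurons, had 136 and 165 counts (58.5 and 47.3 CPM). The 10 lowest detected members were Mir667, Mir668, Mir410, Mir539, Mir679, Mir377, Mir412, Mir495, Mir666 and Mir3072. Among them are Mir410 and Mir495, reported to promote division of cardiac muscle cells in culture. Mir410 had 66 and 114 counts (28.4 and 32.7 CPM) and Mir495 had 36 and 62 counts. Mir3072, the last gene of the window, was the lowest with 22 and 28 counts (9.47 and 8.03 CPM).

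The order of the members was nearly the same in both hearts. The largest shift of rank among the detected members was 1, and it came from 2 pairs of neighbours that changed places, Mir539 with Mir679 and Mir377 with Mir412. Spearman's rho between the 2 hearts was 0.999 over 32 members, a description in which the points share their library and depth. Of the 31 pairs of neighbours in the order of means, 19 differed by no more than their spread between hearts. Most members shared the direction of that spread, and only 2 of the 31 pairs changed order.

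Level did not follow position in a simple way. The members lay in 38.9 kb with a median gap of 590 bp, the smallest gap being 20 bp between Mir679 and Mir1193 and the largest 4368 bp. Spearman's rho of level against position was -0.20 over the 32 members, again a description. Neighbours could differ widely: Mir369 stood at 1200 CPM beside Mir410 and Mir412, which are all within a short stretch near the distal end, and Mir487b stood at 2175 CPM beside Mir539. GENCODE M21 places Mirg at 109729764 to 109749460 on the plus strand, so 24 of the 38 members lie before its annotated start and outside any annotated long gene of that strand. These 24 held 71.4% ± 0.415 (SD, n = 2) of the cluster's counts, and the 14 inside Mirg, of which 9 overlap an exon and 5 lie in introns, held 28.6% ± 0.415. Median level was 123 CPM over the 19 of the former with a mean of 2 CPM or more and 73 CPM over the latter's 13.

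The 2 hearts were then compared member by member. The log2 ratio of CPM + 1, replicate 2 over replicate 1, had a median of 0.22 over the 32 members with a mean of 2 CPM or more (1.16-fold), with a middle range of 0.12 to 0.30, and 26 of 32 lay above 0 (81.2%). Over all 342 features at that level the median was 0.05 and 59.4% lay above 0. Most members were therefore somewhat higher in the deeper library of pup 3, by a similar small amount, and the cluster's total moved with them. No test of members against other genes was made, and with 1 library per pup animal, library preparation and depth cannot be told apart. The listed markers of epithelial and ciliated cells, added after their values had been seen, differed more between the hearts than the cluster did. The 7 epithelial miRNAs listed (the Mir200 family, Mir205 and Mir375) summed to 208 and 631 CPM in the 2 hearts. Of these, 6 of 7 were called higher in replicate 2 by the exact test described next, where 17.9% of all 352 features were higher. Among other miRNAs known from epithelia and not on that list, Mir182 and Mir183 were called higher. Mir203 (163.5 and 189.3 CPM, log2 ratio 0.21, exact adjusted p = 0.128) was not called. Mir192 (-0.11), Mir194-1 (-0.15), Mir194-2 (-0.11) and Mir215 (-0.04) had log2 ratios below 0 and were not called either. The 5 miRNAs of ciliated cells (the Mir34b and Mir449 clusters) summed to 221 and 1186 CPM, with 3 of 5 called higher. Mir449a alone went from 83 to 2589 counts (35.7 to 742.4 CPM). Mir449b (0 and 4 counts) and Mir449c (0 and 3 counts) had too few counts to be tested. The part of the epithelial and ciliated markers in the cluster's difference was not tested. Scaling by TMM or DESeq2 factors moved all ratios by -0.018 and -0.013, far less than the median of the members.

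**Figure D2:**
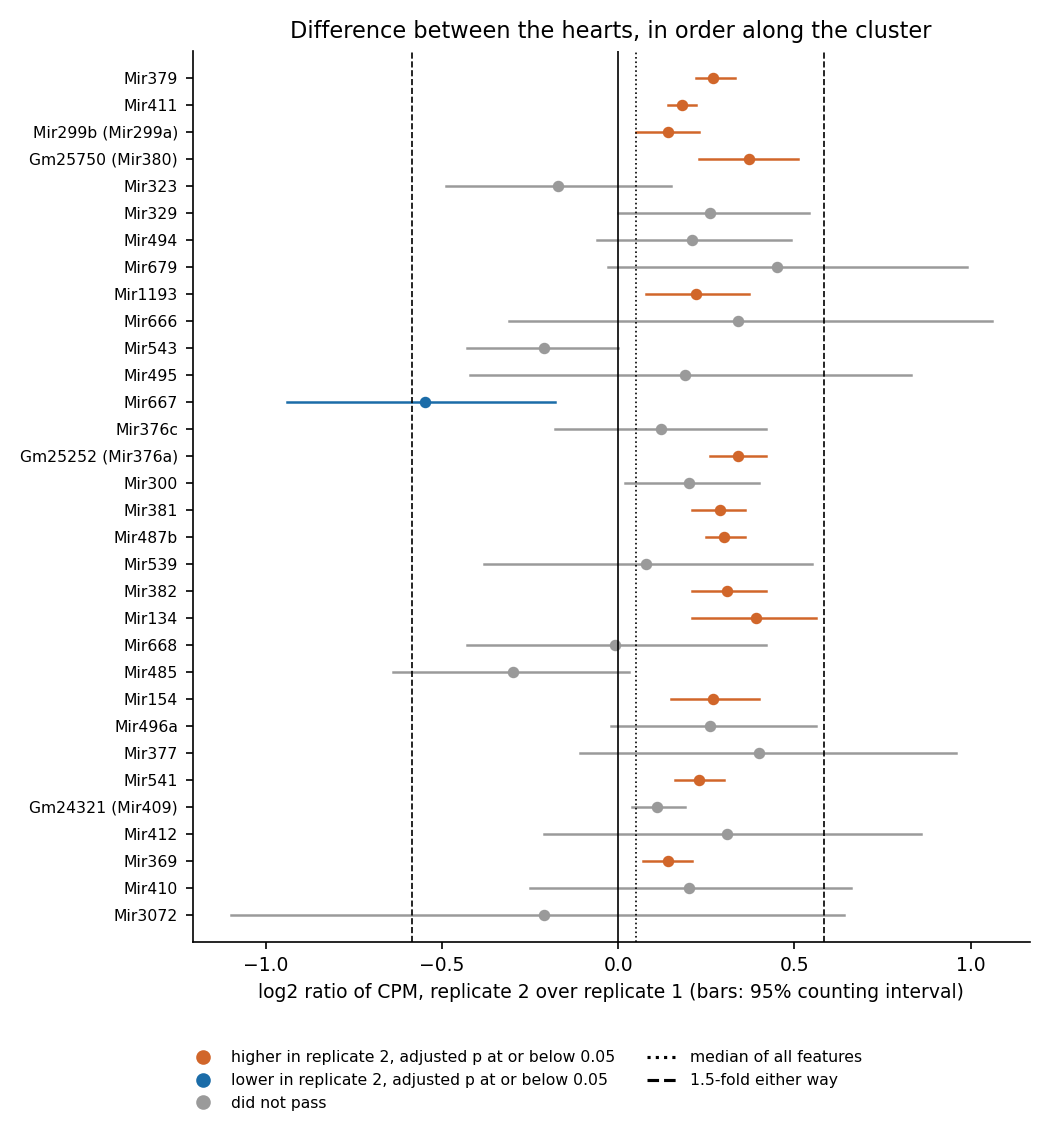
Log2 ratio of replicate 2 over replicate 1 for each member with a mean of 2 CPM or more. Points are on the scale of CPM + 1. Bars give the exact 95% counting interval of the ratio of CPM without the added 1. Of the 32 members 26 lie above 0, and Mir667 lies lowest at -0.55.

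Each feature with 10 or more counts over both libraries was tested by an exact two-sided binomial test given library sizes scaled by TMM, and p-values were adjusted by Benjamini-Hochberg over 352 features and called at 0.05. This test compares 2 libraries at counting error and says nothing of conditions. Of the 32 members tested, 13 were higher in replicate 2 (40.6%), where over all 352 features 17.9% were higher. One member was lower, 1 of 32 (3.12%), where 9.94% of all features were lower. Calls depend on the number of counts, since an abundant gene is called at a smaller ratio: at a mean of 50 CPM or more, 13 of 22 members (59.1%) and 25.4% of the 197 features were called higher. No member passed 1.5-fold in either direction (0 of 32), where 7.60% of 342 features were higher and 2.63% lower by that size.

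The 13 members called higher had log2 ratios between 0.14 and 0.39 and at least 411 counts in each heart. Of them 8 lie before Mirg and 5 inside it. Mir487b had the smallest p of these, with a log2 ratio of 0.30 and an adjusted p of 8.43e-26 in the exact test. Mir379, at 0.27, had an exact adjusted p of 4.76e-19, and Mir411, at 0.18, one of 1.05e-13. Mir376a rose by 0.34 on the log2 scale between replicate 1 and replicate 2 (exact adjusted p = 1.82e-13), and Mir381 by 0.29 (exact adjusted p = 1.82e-11). The largest ratio among the called members was that of Mir134, 0.39, with an exact adjusted p of 0.000128. The others called were Mir541 (0.23), Mir382 (0.31), Mir380 (0.37), Mir154 (0.27), Mir369 (0.14), Mir1193 (0.22) and Mir299a (0.14).

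Mir667 was the only member of the 32 tested that was called lower in replicate 2. It had 119 counts (51.2 CPM) in replicate 1 and 121 counts (34.7 CPM) in replicate 2, so its count hardly moved while the library grew. The level was 1.46-fold lower in replicate 2, a log2 ratio of -0.55, with an exact adjusted p of 0.00808. Its neighbours on either side, Mir495 and Mir376c, had log2 ratios of 0.19 and 0.12 and were not called. Mir543, with a log2 ratio of -0.21 and an exact adjusted p of 0.112, and Mir485, with -0.30 and 0.156, also lay below 0 without passing the test. The 18 members tested and not called had log2 ratios between -0.30 and 0.45, and 13 of the 18 lay above 0. The largest of these ratios was that of Mir679, with 50 and 104 counts (exact adjusted p = 0.192), where so few counts leave a wide interval.

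**Figure D3:**
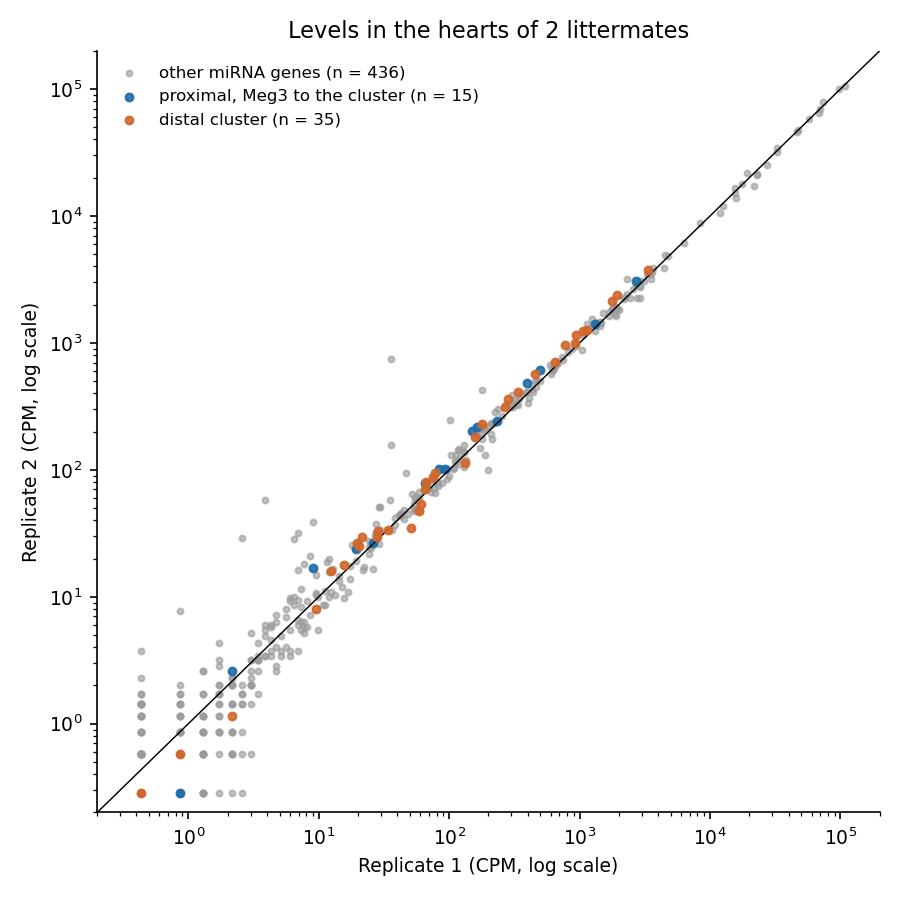
Level in replicate 2 against level in replicate 1 (CPM, both axes log scale) for every gene with counts in both hearts: 35 members of the distal cluster, 15 proximal miRNA genes of the same imprinted region and 436 others; the line marks equal levels. The members lie close to the line over their whole range, most of them slightly above it.

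The proximal miRNA genes of the same region, the 20 rows from the start of Meg3 to the base before Mir379, were set beside the cluster. They include Mir127 and Mir431, which lie antisense to the coding gene Rtl1 and cut its messenger RNA. The 20 rows held 13386 counts (0.576%) in replicate 1 and 22920 counts (0.657%) in replicate 2, a mean of 0.617% ± 0.0574 (SD, n = 2), so that the distal cluster held 2.61-fold and 2.67-fold as many counts. The proximal total was 1.14-fold higher in replicate 2, and the median log2 ratio of the 14 proximal genes whose mean reached 2 CPM was 0.27, with 14 of 14 above 0. Of these 6 were called higher and 0 lower by the exact test, where 17.9% of all 352 features were higher and 9.94% lower. All 6 were among the 10 proximal genes averaging at least 50 CPM. At that level 25.4% of 197 features were called higher. Mir770, with 21 and 59 counts, alone passed 1.5-fold, where 7.60% of 342 features were higher by that size. Mir127, the most abundant, had 6314 counts (2718 CPM) and 10671 counts (3060 CPM), a log2 ratio of 0.17 (exact adjusted p = 1.9e-10), between the levels of Mir411 and Mir487b. The others called were Mir431 (0.11), Mir434 (0.29), Mir337 (0.30), Mir341 (0.40) and the row of Mir3071 (0.43), which overlaps Mir136 on the other strand, so that it is not settled which of them its reads belong to. Both parts of the region thus had ratios above 0 in most genes, and the difference between them was not tested.

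**Figure D4:**
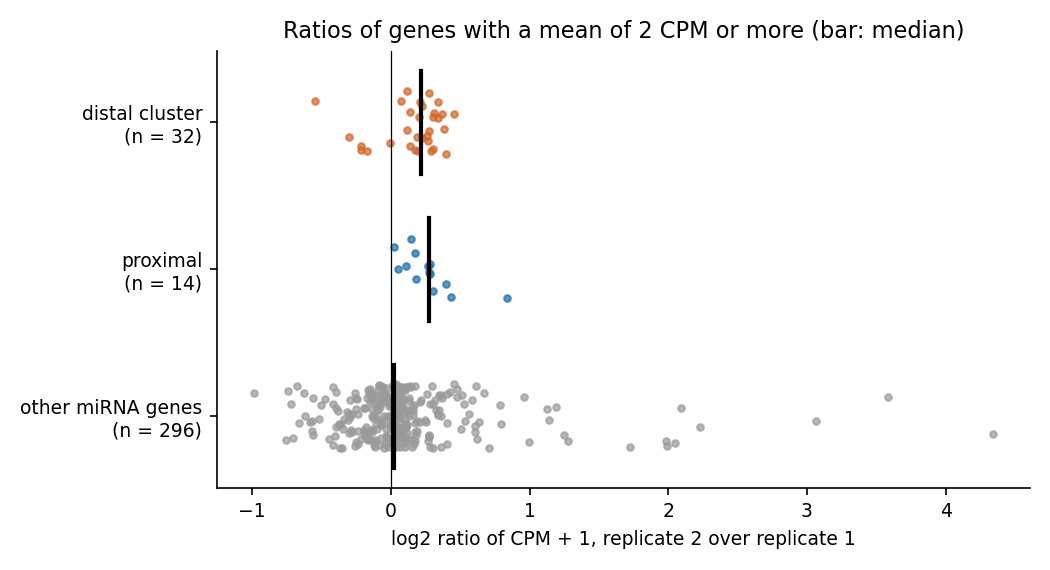
Log2 ratio of CPM + 1, replicate 2 over replicate 1, for each gene whose mean reached 2 CPM, in 3 groups: 32 members of the distal cluster, 14 proximal genes and 296 others, with a bar at the median of each. The medians are 0.22, 0.27 and 0.03.

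Other imprinted miRNAs did not all move in that direction. Of 5 genes outside the region, Mir335 (0.11) and Mir296 (0.30) were called higher by the exact test. Mir483 (-0.24) and Mir298 (-0.14) were called lower, and Mir675 (0.02) was not called. Over all 352 features 17.9% were higher and 9.94% lower, and abundant genes such as the called ones pass at smaller ratios. Because the cluster is well known from the brain, markers of neurons were read in the same libraries. Of 13 listed, 12 had a row and 6 had counts, with summed levels of 304.7 and 310.0 CPM in the 2 hearts, against 15015 and 17539 CPM for the cluster. The rows of Mir9-2, Mir9-3, Mir124a-1, Mir124a-2, Mir124a-3 and Mir219a-2 were at 0 in both hearts. Several of these, like Mir128-1, Mir128-2, Mir138-1 and Mir138-2, are copies whose reads can align to several places. Such reads are not in these counts, so the summed level can be too low and does not measure neuronal RNA. Within the list Mir137 had 21 and 135 counts and was called higher in replicate 2, and Mir128-1 was called lower (log2 ratio -0.28). The endothelial marker Mir126a stood at 108110 and 105610 CPM, the smooth muscle markers Mir143 and Mir145a summed to 98349 and 102229 CPM, the red cell markers Mir451a, Mir144 and Mir486 to 705 and 608 CPM, and the liver marker Mir122 stood at 53.8 and 47.3 CPM. The part of cell makeup in the difference between the hearts was not tested, and in whole tissue more cells of a type and more RNA per cell cannot be told apart.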

How the data were processed

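Small RNA libraries (total RNA, inserts under 30 nt, 1 per heart) were analysed from the counts the authors deposited: whole numbers of reads per miRNA gene in 3 columns (both strands, sense, opposite), not normalized, on mm10 with GENCODE M4 per the deposited library description. Aligner, counter and multi-mapping settings are not given in the sources used here. Unmapped reads were 11.5% and 10.5%, reads aligned to several places 36.6% and 37.1%, and reads on no feature 5.93% and 5.62%; these rows were left out of library sizes.

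Members and gene lists (proximal and other imprinted miRNAs, cardiac muscle, endothelium, smooth muscle, neurons, liver, red cells, and epithelium and ciliated cells added last) were chosen with earlier results of these data known. Positions came from GENCODE M21, which matched 1894 of 1973 identifiers. Plus-strand members used the sense column and the 4 minus-strand rows the opposite one, giving 1977 features. CPM used the sense total. Ratios used a pseudocount of 1 CPM and features with a mean of 2 CPM or more. TMM factors came from edgeR 4.0.16 and alternative size factors from DESeq2 1.42.0. Their gene tests need residual degrees of freedom that 1 library per pup does not give. An exact binomial test (SciPy 1.17.1, features with 10 or more counts) was used instead. It was also run on simulated counts that held counting error only, which cannot show how it behaves between 2 animals. Values are named per library for members with a mean of 50 CPM or more, minus-strand rows and members called; lower members named with values (Mir410, Mir495, Mir679, Mir3072 and those near 0) and the printed subset of sequences were chosen after their values were seen.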

Additional observations from a re-analysis of the deposited data

How the results depend on the processing

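The mean share of 1.63% moved to 1.34% with the sense column for every member and to 0.756% with all reads as the denominator. It moved to 1.05% without the 4 members that share 20 bases with a gene they do not overlap. Leaving out each replicate in turn gave shares of 1.5 to 1.75%, 32 to 33 detected members and proximal shares of 0.576 to 0.657%. With the sense column alone, 10 of 28 members tested were called higher, and 17% of all features. There the 4 minus-strand rows had too few counts to be tested. Without the sharing members the count was 11. It was 14 of 32 with total counts (20.7% of all features) and 14 of 32 with DESeq2 size factors (19%). At a filter of 1 count it was 12 of 35 (8.89%), and at 50 counts 14 of 32 (24.1%). In each setting 1 member was lower, where 5.33 to 13.7% of all features were lower. The number past 1.5-fold was 0 under each setting run for it (other pseudocounts, other CPM filters or none, TMM or DESeq2 scaling, the sense column alone). Mir299a lost its call at a filter of 1 count (exact adjusted p = 0.0625). Mir409 gained one with total counts (0.0163), DESeq2 factors (0.0393) and a filter of 50 counts (0.0426), against 0.0545 as reported and 0.0948 at a filter of 1 count. The filters left each exact p unchanged and altered how many features it was adjusted over: 619 at 1 count, 352 as reported and 270 at 50 counts. Total counts and DESeq2 factors changed the library sizes given to the test. No paired analysis was possible because there is 1 group. Few counts limit the 10 lowest detected members most, and both pups share a litter, so the spread between litters is not covered.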
